A study of Rattus norvegicus with 12 samples.

Results

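The 10 genes described here cross-link the collagen and elastin scaffold of the heart, cut it, or hold back the cutting. They are the lysyl oxidases Lox, Loxl1, Loxl2 and Loxl3, the matrix metalloproteinases Mmp2 and Mmp14, and the tissue inhibitors of metalloproteinases Timp1, Timp2, Timp3 and Timp4. They were chosen by name, for their function. All 10 were among the 32545 genes of the deposited table, and all 10 were among the 13910 genes that were tested because their FPKM (fragments on a gene, scaled by its length and by the library's depth) averaged 0.5 or more.

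The left ventricular (LV) and right ventricular (RV) free walls of Sprague–Dawley rats were sequenced at postnatal day 7 (P7). The rats had received an arteriovenous fistula (AVF) between the abdominal aorta and the inferior vena cava, which puts both ventricles under volume overload (VO), or a sham operation, in each case at postnatal day 1 (P1). Sham and VO rats each gave an LV group and an RV group, with 3 libraries in each of the 4 groups. No genetic change or drug is named as a difference between groups. The paper names isoflurane, ice cooling and local lidocaine as part of the surgery. The labels give neither the sex of the rats nor whether the libraries of a group came from separate animals. The p-values thus measure the spread between these libraries. The fistula loads both sides of the heart at the same time, so neither VO group has an unloaded ventricle of its own heart as a control.

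Lysyl oxidases are copper-dependent enzymes that oxidize lysine side chains of collagen and elastin, which then join into the covalent cross-links that stiffen the matrix. Mmp14 is anchored in the cell membrane, where it cleaves collagen and, together with Timp2, turns the secreted gelatinase Mmp2 from its latent into its active form. TIMPs bind the active site of metalloproteinases, and Timp4 is known for its high level in the heart compared with other organs. In the heart, fibroblasts are a main source of fibrillar collagen and of many of these enzymes.

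RefSeq promoters of build GRCr8 could be matched to 6 of the 10 genes, namely Loxl1, Loxl3, Timp1, Timp2, Timp3 and Timp4. The stretches of 250 bases before the start site of Timp4, Timp1 and Timp2 are shown because these are the 3 genes with the clearest differences between groups in the sections that follow. All 3 are written 5′ to 3′ on the strand of the gene, which is the minus strand, with matches to the motifs searched in capitals. The Timp4 stretch is at chr4:149985205-149985454, that of Timp1 at chrX:3771123-3771372 and that of Timp2 at chr10:104089215-104089464.
Timp4: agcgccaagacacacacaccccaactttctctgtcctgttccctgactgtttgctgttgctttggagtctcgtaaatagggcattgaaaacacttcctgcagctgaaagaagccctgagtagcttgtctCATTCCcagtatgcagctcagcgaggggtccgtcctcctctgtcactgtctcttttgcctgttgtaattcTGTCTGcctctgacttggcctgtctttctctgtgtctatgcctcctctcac
Timp1: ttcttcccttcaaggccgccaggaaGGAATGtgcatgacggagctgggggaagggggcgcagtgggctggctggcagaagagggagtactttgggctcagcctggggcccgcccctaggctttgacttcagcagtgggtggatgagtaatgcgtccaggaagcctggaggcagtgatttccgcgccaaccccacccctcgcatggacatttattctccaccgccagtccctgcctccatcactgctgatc
Timp2: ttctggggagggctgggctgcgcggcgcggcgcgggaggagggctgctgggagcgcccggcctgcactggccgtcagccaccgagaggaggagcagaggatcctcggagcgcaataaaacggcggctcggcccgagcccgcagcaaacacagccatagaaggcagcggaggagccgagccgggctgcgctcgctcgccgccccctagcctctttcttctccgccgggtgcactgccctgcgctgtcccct
The capitals in Timp4 mark the reverse complement of the TEAD motif GGAATG, which begins at position −121 from the start site, and of the SMAD motif CAGACA, which begins at −51. In Timp1 they mark GGAATG at position −225, and Timp2 held none of the motifs searched. The 250 bases were 50.8% G and C in Timp4, 61.2% in Timp1 and 72.0% in Timp2. Over windows of 300 bases (250 before and 50 after the start site), searched on both strands, GGAATG was found in 4 of the 6 genes (Loxl1, Loxl3, Timp1 and Timp4) and in 13.9% of all 27457 promoters. CAGACA was found in 2 of the 6 (Loxl1 and Timp4) and in 20.8% of all promoters. The AP-1 motif TGANTCA (7.33% of all promoters), the hypoxia motif ACGTG (19.7%) and the TATA box TATAAA (14.3%) were found in 0 of the 6. These matches describe letters in a window, and binding was not measured.

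Gene reads per library, recovered from the FPKM and the gene lengths, numbered from 14121713 to 16871371. The 10 genes held from 105 reads (Timp4 in sham RV replicate 2) to 10270 reads (Mmp2 in VO RV replicate 2), so counting error alone was 9.76% for the lowest Timp4 count and 1.57% for the lowest Mmp2 count. Markers showed a myocardial tissue in every library, with cardiomyocyte markers summing to between 17130 and 25780 FPKM. VO RV replicate 2 and sham RV replicate 1 stood apart, with atrial cardiomyocyte markers summing to 4559 and 1065 FPKM against 212 to 311 in the other 4 RV libraries and 706 to 1729 in the LV libraries. Most of the sum in the LV libraries was Nppa. Of the other atrial markers, Sln was at 387.9 and 97.7 FPKM in VO RV replicate 2 and sham RV replicate 1, and at most 0.678 elsewhere. Bmp10 was at 72.5 and 12.6 FPKM in them, and at most 0.152 elsewhere. The fibroblast marker sums of VO RV replicate 2 and sham RV replicate 1, 4539 and 3446 FPKM, were also the highest of the 12. Mural cell markers summed to between 980 and 1210 FPKM, epicardial markers to between 29.5 and 77.6 FPKM and red blood cell markers to between 6698 and 17260 FPKM. The Y-linked genes summed to between 56.1 and 64.9 FPKM in 5 libraries (sham LV replicates 1 and 2, sham RV replicates 1 and 2, and VO RV replicate 3) and to at most 0.373 in the other 7, which include all 3 of VO LV. Below, values without VO RV replicate 2 or sham RV replicate 1 are given beside the results that they moved most.

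The 10 genes fell into 3 levels that did not overlap in any library. Timp2, Mmp2, Mmp14, Loxl1 and Timp3 lay between 60.0 and 186.5 FPKM. Loxl2, Timp1 and Lox lay between 12.3 and 39.3 FPKM, and Timp4 and Loxl3 between 2.69 and 8.99 FPKM. Timp2 was the most abundant of the 10 in 10 of 12 libraries and Mmp2 in the other 2 (sham LV replicate 1 and VO RV replicate 2). By mean FPKM, Timp2 ranked 514th and Mmp2 620th of the 13910 tested genes, whereas Timp4 ranked 8019th and Loxl3 9734th. Within the upper level the genes overlapped between libraries, as did those of the middle level. Timp4 was above Loxl3 in 11 of 12 libraries, the exception being VO RV replicate 2.

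**Figure D1:**
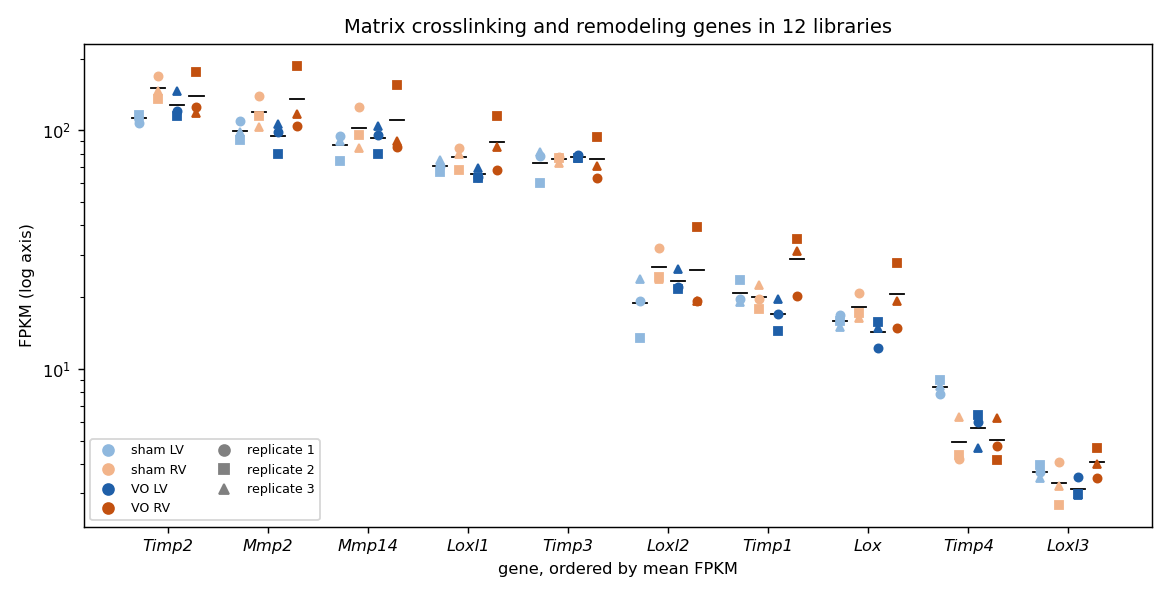
FPKM (log axis) of the 10 genes, ordered by mean FPKM, in the 12 libraries. Colours are the 4 groups, marker shapes the replicate numbers and black bars the group means; 9 of the 10 genes have their highest point in VO RV replicate 2, and Timp4 is highest in the 3 sham LV libraries.

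To see how the normal LV and RV differ in these genes, sham LV was compared with sham RV. Timp4 was the gene of the 10 that passed the test (adjusted p under 0.05 in limma and a fold change over 1.3), with a 1.67-fold higher level in the LV. The share of genes called among all tested was 3.85%. An unadjusted p under 0.05 was reached by 2 of the 10 (Timp4 and Timp2), where 25.7% of all genes reached it, and the libraries of the groups did not overlap in the same 2, where 32.2% of all genes did not overlap. Both shares among the 10 were thus near or below those of all genes. The difference was positive (higher in the LV) for 3 of the 10, and their median log2 difference was −0.15, beside 0.01 over all genes. With the mean of the fibroblast markers as a covariate, a fit added after the data were seen, it was positive for 7 of the 10 and 0 were called.

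For the response of the LV, VO LV was compared with sham LV, and 0 of the 10 were called in limma, beside 0.0935% of all genes. An unadjusted p under 0.05 was reached by 1 of the 10 (Timp4), beside 23.4% of all genes, and the groups did not overlap in 1 of the 10 (again Timp4), beside 32.4% of all genes. With the fibroblast covariate 3 of the 10 had an unadjusted p under 0.05 and 0 were called, beside 3863 and 286 of all 13910 genes. Y-linked genes were expressed in sham LV replicates 1 and 2 but in no VO LV library, so VO and Y-linked expression are confounded in part here. With a covariate for the Y-linked genes, 1 of the 10 had an unadjusted p under 0.05, beside 1726 of all genes, and 0 of all genes were called. In the RV, 0 of the 10 were called between VO and sham, where 0% of all genes were called. There, 1 of the 10 (Timp1) had an unadjusted p under 0.05, beside 8.4% of all genes, and 0 of the 10 had groups without overlap, beside 12.5%. The log2 difference was above 0 for 4 of the 10 in the LV and for 7 of the 10 in the RV. Without VO RV replicate 2 it was above 0 for 3 of the 10 in the RV, and without VO RV replicate 1 for 9 of the 10.

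Between VO LV and VO RV, 0 of the 10 were called in limma, beside 0.00719% of all genes. Here 4 of the 10 had an unadjusted p under 0.05 (Timp1, Loxl1, Lox and Mmp2), all lower in the LV, beside 11.4% of all genes. Groups without overlap were found for 1 of the 10 (Timp1), beside 16.1% of all genes. Without VO RV replicate 2, 1 of the 10 (Timp1) kept an unadjusted p under 0.05, beside 1666 of all 13910 genes. Without VO RV replicate 1 there were 5 of the 10, with Timp1 called, beside 2230 of all genes at that p and 48 called. With the fibroblast covariate 0 of the 10 had an unadjusted p under 0.05, beside 1827 of all genes. The differences were then −0.10 for Lox, −0.08 for Loxl1, −0.06 for Mmp2 and −0.39 for Timp1. Whether VO acted differently on the LV than on the RV was tested as an interaction, which called 0 of the 10, beside 4.19% of all genes. Its unadjusted p was under 0.05 for 2 of the 10 (Timp1 and Timp4), beside 25.5% of all genes, and for 4 of the 10 with the fibroblast covariate, without VO RV replicate 1 or without VO RV replicate 2. Of all 13910 genes, 4152, 3727 and 4142 reached that p in these fits, in that order. Among these fits, 1 of the 10 (Timp1) was called without VO RV replicate 1 and 0 in the others. Over all genes, 1113 were called with the fibroblast covariate, 1003 without VO RV replicate 1 and 909 without VO RV replicate 2. These comparisons share groups with each other, so their values for a gene are not independent.

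**Figure D2:**
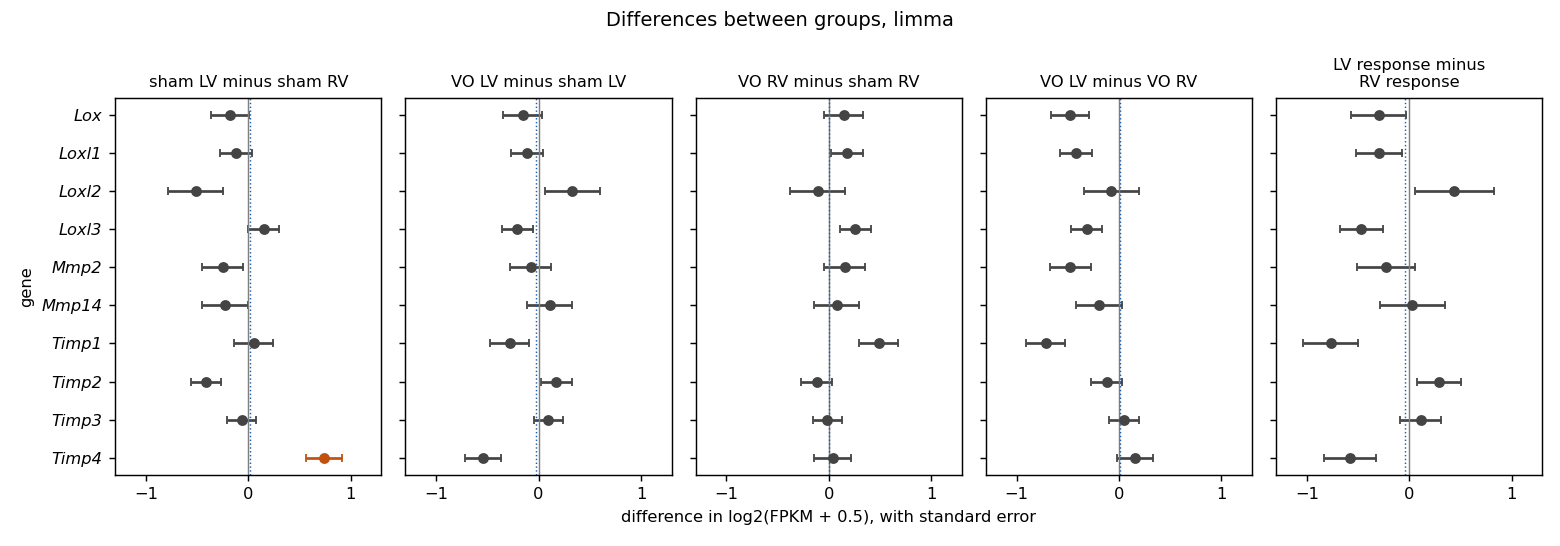
Differences of the 10 genes in log2(FPKM + 0.5) in 5 comparisons (points, with the standard error of limma as bars), where the grey line is 0 and the dotted blue line the median of all 13910 genes. The called difference is orange: Timp4 between sham LV and sham RV, at 0.74.

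Among the cross-linking enzymes, Loxl1, which is known for its role in elastic fibres, made up between 59.8 and 66.8% of the summed FPKM of the 4 lysyl oxidases in every library. The deposited table places it on chromosome 8, 63067300 to 63092009, minus strand (here and for the other genes as that table gives positions, for which no genome build is named). Loxl1 was at 70.9, 67.2 and 75.4 FPKM in sham LV, at 84.6, 68.5 and 79.9 in sham RV, at 63.7, 63.2 and 69.6 in VO LV, and at 68.5, 114.8 and 85.2 in VO RV. VO RV replicate 2 was the highest, and VO LV replicates 1 and 2 were the lowest. Between VO LV and VO RV, Loxl1 differed by −0.42 ± 0.16 (SE) on the log2(FPKM + 0.5) scale with an adjusted p of 0.363 in limma, by −0.22 without VO RV replicate 2, and by −0.59 (adjusted p = 0.0839) without VO RV replicate 1. VO RV differed from sham RV by 0.18, by −0.02 when replicate 2 was left out, and by 0.36 when replicate 1 was.

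Lox, the founding member of the family (chromosome 18, 47500330 to 47577819, minus strand), was lower than Loxl1 in every library. It was at 16.8, 15.9 and 15.0 FPKM in sham LV, at 20.8, 17.2 and 16.4 in sham RV, at 12.3, 15.8 and 14.8 in VO LV, and at 14.8, 27.7 and 19.3 in VO RV. The groups overlapped in each comparison, with the lowest value in VO LV and the highest in VO RV. VO LV and VO RV differed by −0.48 ± 0.19 (SE) with an adjusted p of 0.385 in limma, by −0.24 without VO RV replicate 2, and by −0.69 (adjusted p = 0.0938) without VO RV replicate 1. The difference of VO RV from sham RV was 0.15, and −0.09 or 0.36 when VO RV replicate 2 or replicate 1 was left out.

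Loxl2, which acts on type IV collagen of basement membranes among other substrates (chromosome 15, 51303909 to 51365234, plus strand), had values of 19.2, 13.5 and 23.9 FPKM in sham LV and 32.0, 24.2 and 23.8 in sham RV, against 22.1, 21.6 and 26.3 in VO LV and 19.2, 39.3 and 19.3 in VO RV. All 4 groups overlapped, with the lowest value in sham LV and the highest in VO RV. Sham LV differed from sham RV by −0.51 ± 0.27 (SE) with an adjusted p of 0.25 in limma, the largest absolute difference among the lysyl oxidases in that comparison. It was −0.30 without sham LV replicate 2 and −0.21 with the fibroblast covariate. Without VO RV replicate 2, VO RV differed from sham RV by −0.45, against −0.11 with it, with an adjusted p of 0.437, and VO LV differed from VO RV by 0.27, against −0.07 with it.

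Loxl3 (chromosome 4, 113866804 to 113883477, plus strand), another enzyme that oxidizes lysines of collagen and elastin, was the lowest of the 10 by mean. Its mean was 3.703 ± 0.240 FPKM in sham LV and 3.33 ± 0.698 in sham RV, against 3.14 ± 0.310 in VO LV and 4.05 ± 0.596 in VO RV (SD, n = 3 each). The groups overlapped in every comparison. It rested on 122 to 268 reads, and its largest difference in the 4 comparisons of groups, −0.32 ± 0.15 (SE) between VO LV and VO RV, had an adjusted p of 0.459 in limma. The LV and RV responses to VO differed by −0.47, with an adjusted p of 0.196.

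Relative to collagen, the lysyl oxidases varied little between groups. The summed FPKM of the 4 enzymes was between 47.8 and 65.8 for each 1000 FPKM of Col1a1, Col1a2 and Col3a1 together, the lowest in sham LV replicate 2 and the highest in VO LV replicate 2. VO RV replicate 2, which had the highest levels of all 4 enzymes, was at 52.4 on this scale, inside that range.

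Among the proteases, Mmp2 (chromosome 19, 15542765 to 15570611, minus strand) was at 109.5, 91.4 and 98.7 FPKM in sham LV, at 140.0, 114.7 and 103.3 in sham RV, at 99.0, 80.0 and 106.6 in VO LV, and at 104.2, 186.5 and 117.4 in VO RV. Sham RV replicate 1 and VO RV replicate 2, the libraries with the most fibroblast and atrial markers of the RV, were the highest. VO LV and VO RV differed by −0.48 ± 0.20 (SE) with an adjusted p of 0.413 in limma, by −0.23 without VO RV replicate 2, and by −0.65 (adjusted p = 0.164) without VO RV replicate 1. With all libraries, Mmp2 differed between VO and sham by −0.07 in the LV and by 0.16 in the RV. The RV difference was −0.10 when VO RV replicate 2 was left out and 0.32 when replicate 1 was.

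Mmp14 (chromosome 15, 33074441 to 33083655, plus strand) was at 95.1, 74.3 and 90.1 FPKM in sham LV, at 126.0, 96.1 and 84.3 in sham RV, at 96.1, 79.5 and 104.1 in VO LV, and at 85.3, 155.1 and 90.3 in VO RV. As for Mmp2, sham RV replicate 1 and VO RV replicate 2 were highest, and all groups overlapped. Its differences lay between −0.23 and 0.11 in the 4 comparisons of groups, with adjusted p from 0.542 to 0.939. The difference of VO RV from sham RV, without VO RV replicate 2, was −0.20 in place of 0.08, and that of VO LV from VO RV was 0.08 in place of −0.20. Sham LV differed from sham RV by −0.23, and by −0.07 without sham RV replicate 1. Over the 12 libraries, Mmp2 and Mmp14 had a Pearson r of 0.921 and a Spearman rho of 0.769, and r was 0.814 without VO RV replicate 2.

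Although both proteases overlapped between groups, their ratio was lowest in VO LV. Mmp2 over Mmp14 was 1.03, 1.01 and 1.02 in VO LV, against 1.15, 1.23 and 1.10 in sham LV, 1.11, 1.19 and 1.22 in sham RV, and 1.22, 1.20 and 1.3 in VO RV. The 3 VO LV libraries were thus below the other 9. This ratio was picked out after its values were seen, so it is given without a test.

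Of the inhibitors, Timp2 (chromosome 10, 107338465 to 107386072, minus strand) made up between 50.6 and 62.6% of the summed FPKM of the 4 TIMPs. It was at 107.9, 115.9 and 114.0 FPKM in sham LV, at 169.8, 135.7 and 145.9 in sham RV, at 121.0, 115.0 and 146.1 in VO LV, and at 125.2, 176.2 and 118.6 in VO RV. All sham RV libraries were above all sham LV libraries, with means of 150.5 ± 17.5 and 112.6 ± 4.16 FPKM (SD, n = 3 each). On the log2 scale sham LV differed from sham RV by −0.41 ± 0.15 (SE), with an adjusted p of 0.119 in limma, and an exact two-sided permutation test gave 0.10, the smallest p it allows with 3 libraries against 3. Without sham RV replicate 1 the difference was −0.32 with an adjusted p of 0.339. With the atrial marker mean as a covariate it was −0.37 with an adjusted p of 0.038, which is below the fold change of 1.3, and with the fibroblast covariate it was −0.24 with an adjusted p of 0.213.

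Timp3, which binds to the matrix itself (chromosome 7, 23544215 to 23594133, minus strand), had group means close to each other. Its mean was 73.1 ± 11.4 FPKM in sham LV and 75.7 ± 2.39 in sham RV, against 77.3 ± 1.42 in VO LV and 75.8 ± 15.8 in VO RV (SD, n = 3 each). With all libraries, the 4 comparisons of groups gave differences between −0.06 and 0.10 on the log2 scale. Single libraries moved them further: without VO RV replicate 2, VO LV differed from VO RV by 0.21 and VO RV from sham RV by −0.18, and without sham LV replicate 3, VO LV differed from sham LV by 0.18. Leaving out sham LV replicate 2 turned the sign of VO LV against sham LV (from 0.10 to −0.04) and of sham LV against sham RV (from −0.06 to 0.07). The lowest library was sham LV replicate 2 at 60.0 FPKM and the highest VO RV replicate 2 at 93.6 FPKM.

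Timp1, the inhibitor known to be induced by inflammation and injury (chromosome X, 1364786 to 1369384, minus strand), had its largest spread in VO RV. It was at 19.6, 23.7 and 19.0 FPKM in sham LV, at 19.6, 17.9 and 22.5 in sham RV, at 17.1, 14.4 and 19.6 in VO LV, and at 20.1, 35.1 and 31.2 in VO RV. All 3 VO RV libraries were above all 3 VO LV libraries, but VO RV replicate 1 lay within the range of the sham groups. The means were 28.8 ± 7.76 FPKM in VO RV and 17.0 ± 2.57 FPKM in VO LV (SD, n = 3 each).

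VO LV differed from VO RV in Timp1 by −0.72 ± 0.19 (SE) on the log2 scale, a fold of 0.608, with an unadjusted p of 0.00289 and an adjusted p of 0.252 in limma, and the exact permutation test gave 0.10, its smallest value. VO RV differed from sham RV by 0.49 ± 0.19 (SE), with an adjusted p of 0.56, and VO LV from sham LV by −0.28 ± 0.19 (SE), with an adjusted p of 0.384. The LV and RV responses differed by −0.77 ± 0.27 (SE), with an adjusted p of 0.113. These values depended on single VO RV libraries. Without VO RV replicate 1, the lowest of its group, VO LV differed from VO RV by −0.95 ± 0.15 (SE) with an adjusted p of 0.0384, and the responses differed by −1.003 ± 0.20 (SE) with an adjusted p of 0.0218, both past the threshold, while VO RV differed from sham RV by 0.72 with an adjusted p of 0.193. Without VO RV replicate 2, the VO LV and VO RV difference was −0.56 with an adjusted p of 0.357. With VO RV replicate 3 left out it was −0.64 with an adjusted p of 0.542, the response difference was −0.70 with an adjusted p of 0.243, and VO RV differed from sham RV by 0.41 with an adjusted p of 0.993.

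Macrophage markers, led in abundance by C1qc, summed to 102.4 and 88.3 FPKM in VO RV replicates 2 and 3, the same libraries in which Timp1 was highest, and to between 53.7 and 72.5 FPKM in the other 10. Of the 10 macrophage markers, 9 were above 0 in VO RV against sham RV (median log2 difference 0.41), and 0 were called. An unadjusted p under 0.05 with higher levels in VO RV was reached by 4 of the 10, beside 8.4% of all genes in either direction. With VO RV replicate 2 left out, 8 of the 10 were above 0, with a median of 0.18, and with VO RV replicate 1 left out 10 of the 10, with a median of 0.59. In these fits 2 and 8 of the 10 reached that p, beside 1623 and 1735 of all 13910 genes. Fibroblast markers, led by Col3a1, summed to between 2409 and 4539 FPKM in VO RV and between 2019 and 2429 FPKM in VO LV. In bulk tissue, fewer cells of a type and less RNA per cell cannot be told apart.

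Timp4 (chromosome 4, 147156948 to 147163467, minus strand) had a pattern of its own among the inhibitors. It was at 7.84, 8.99 and 8.44 FPKM in sham LV, at 4.17, 4.35 and 6.25 in sham RV, at 5.96, 6.38 and 4.65 in VO LV, and at 4.74, 4.16 and 6.22 in VO RV. Every sham LV library was above every other library, and the other 3 groups overlapped. The means were 8.43 ± 0.577 FPKM in sham LV and 4.92 ± 1.16 in sham RV, against 5.66 ± 0.901 in VO LV and 5.04 ± 1.06 in VO RV (SD, n = 3 each).

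Sham LV exceeded sham RV in Timp4 by 0.74 ± 0.18 (SE) on the log2 scale, with an adjusted p of 0.0459 in limma and the smallest exact permutation p of 0.10. VO LV differed from sham LV by −0.54 ± 0.18 (SE), with an unadjusted p of 0.0106 and an adjusted p of 0.112, and the exact permutation test again gave 0.10. In the RV the VO and sham groups differed by 0.04, with an adjusted p of 0.966. The LV and RV responses differed by −0.58 ± 0.25 (SE), with an adjusted p of 0.176. The called sham difference was close to the threshold: it kept its sign in all 28 alternatives and the call in 14 of them, and among the 12 single libraries left out it kept the call in 4. The difference was smallest, 0.64 with an adjusted p of 0.166, without sham RV replicate 1. Leaving out VO LV replicate 3 moved the VO LV and sham LV difference to −0.42, with an adjusted p of 0.376.

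Endothelial markers, led in abundance by Cdh5, moved with Timp4. Of the 10 listed, 9 were in the table, none of them at 0 in every library. They summed to between 585 and 635 FPKM in sham LV and between 417 and 445 in sham RV, against 450 to 505 in VO LV and 421 to 536 in VO RV. Between sham LV and sham RV, 4 of the 9 were called (beside 3.85% of all genes), all higher in the LV, and the median log2 difference of the 9 was 0.42. Without sham RV replicate 1, 0 of the 9 were called, as were 0 of all genes, and the median was 0.37. Between VO LV and sham LV, 0 of the 9 were called, 4 had an unadjusted p under 0.05 with lower levels in VO LV (beside 23.4% of all genes in either direction), and the median was −0.25. Over the 12 libraries, Timp4 and the mean of these markers had a Pearson r of 0.873 and a Spearman rho of 0.699, and r was 0.891 without VO RV replicate 2. The part of endothelial cells in the Timp4 difference was not tested.

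**Figure D3:**
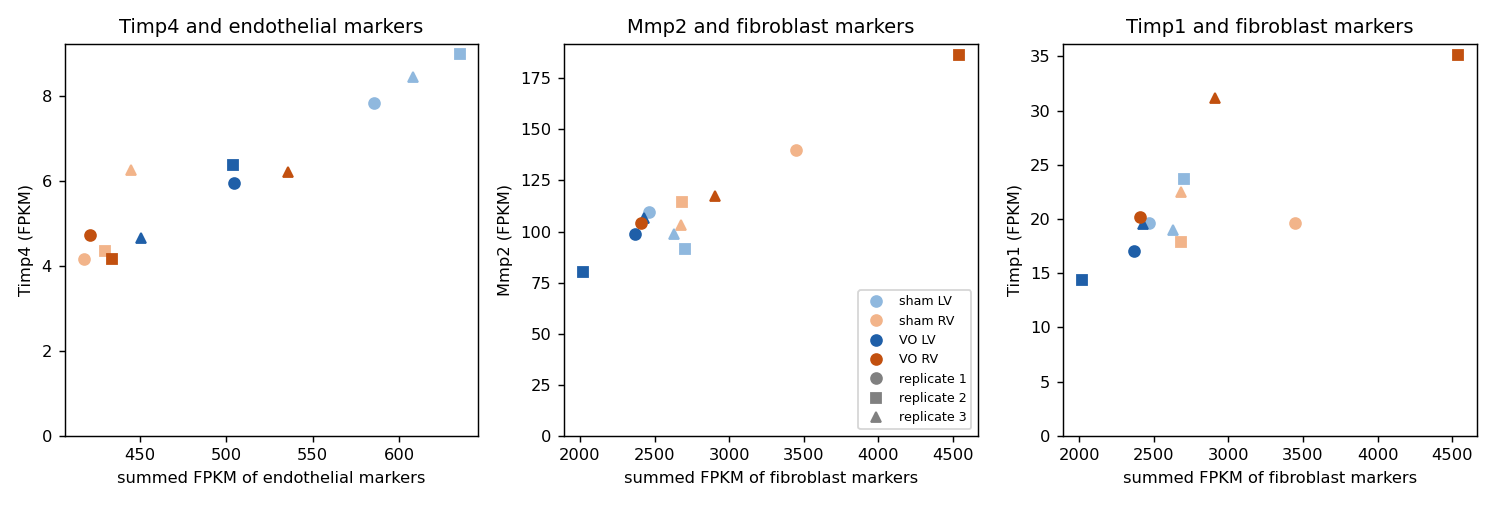
Timp4 against the summed FPKM of the endothelial markers, and Mmp2 and Timp1 against that of the fibroblast markers, in the 12 libraries (FPKM on both axes, colours for groups, shapes for replicate numbers). The 3 sham LV libraries are at the upper right for Timp4, and VO RV replicate 2 is at the upper right for Mmp2 and Timp1.

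The makeup of the inhibitors differed between libraries in the same way. Timp4 made up 3.93 ± 0.339% of the TIMP sum in sham LV and 1.97 ± 0.505% in sham RV, against 2.52 ± 0.576% in VO LV and 2.11 ± 0.707% in VO RV (SD, n = 3 each). Timp1 over Timp4 lay between 2.25 and 2.63 in sham LV and between 3.59 and 4.72 in sham RV, against 2.26 to 4.21 in VO LV and 4.25 to 8.43 in VO RV. The RV groups were thus above sham LV in every library, and VO LV overlapped both sham groups. Of all genes, 32.2% did not overlap between sham LV and sham RV. The sum of the 4 TIMPs over that of Mmp2 and Mmp14 lay between 0.905 and 1.33 and was lowest in VO RV replicate 2. It was 1.14, 1.33 and 1.17 in VO LV and 1.13, 0.905 and 1.09 in VO RV, which did not overlap each other, while both overlapped the sham groups. The nearest VO LV and VO RV libraries were at 1.143 and 1.126, and 16.1% of all genes did not overlap between these groups. These ratios are given without a test.

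**Figure D4:**
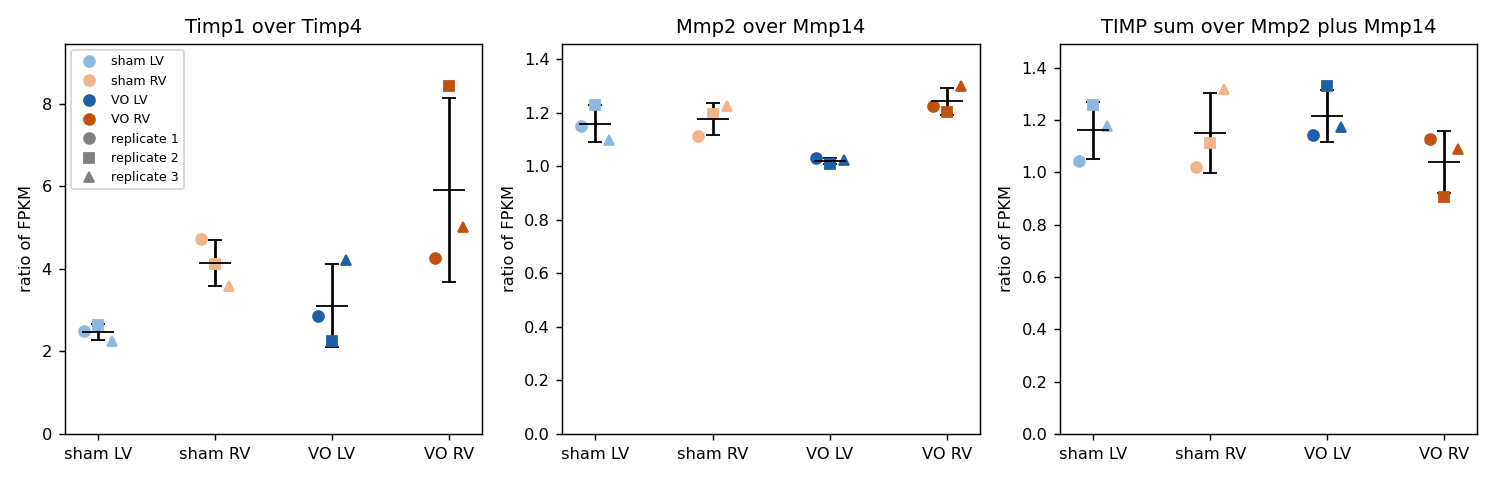
Ratios of FPKM in each library: Timp1 over Timp4, Mmp2 over Mmp14, and the TIMP sum over the sum of Mmp2 and Mmp14. Points are libraries, coloured by group, and bars are the mean ± SD of 3; the 3 VO LV points of Mmp2 over Mmp14, from 1.01 to 1.03, lie below the other 9.

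The levels were also set beside those of the fibroblast markers. The Pearson r of each gene with the mean of these markers over the 12 libraries was 0.941 for Loxl1, 0.917 for Mmp2, 0.894 for Lox, 0.805 for Mmp14 and 0.79 for Timp2. It was 0.758 for Timp1, 0.708 for Loxl2, 0.619 for Loxl3 and 0.507 for Timp3, and −0.499 for Timp4. Without VO RV replicate 2 it was 0.833 for Loxl1, 0.782 for Mmp2, 0.729 for Lox, 0.665 for Timp2, 0.515 for Mmp14 and 0.513 for Timp1. It was then 0.434 for Loxl2, 0.314 for Loxl3, 0.035 for Timp3 and −0.36 for Timp4. In that library 9 of the 10 were at their highest, at 1.23 to 2.02 times the mean of the other VO RV libraries, while Timp4 was at 0.789 times; the median was 1.77 for the fibroblast markers and 0.733 for the cardiomyocyte markers. Sham RV replicate 1 was above the mean of the other sham RV libraries for 8 of the 10 (1.04 to 1.40 times), and below it for Timp1 (0.978 times) and Timp4 (0.814 times). Some genes had a larger absolute r with another marker list than with the fibroblast markers. With the cardiomyocyte markers r was −0.822 for Loxl3 and −0.778 for Timp1 (−0.725 and −0.561 without VO RV replicate 2). With the macrophage markers it was 0.773 for Timp1, 0.725 for Loxl3 and 0.578 for Timp3 (0.553, 0.533 and 0.209 without VO RV replicate 2). Points of one group share their treatment and ventricle, so these coefficients describe the libraries only.

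Among the 8631 genes that averaged 5 FPKM or more, those most like Mmp2 over the 12 libraries were Thbs2 (r = 0.982, rho = 0.944) and Postn (r = 0.981, rho = 0.944), both secreted matrix proteins. Those most like Mmp14 were Fn1, which encodes fibronectin (r = 0.961), and Igsf10 (r = 0.958). Lox was most like Sertad4 (r = 0.934) and Aebp1 (r = 0.93), and Loxl1 most like Gpm6b (r = 0.946) and Adamts2 (r = 0.942), the latter a protease that trims procollagen. Loxl2 was most like Antxr1 (r = 0.963) and Epb41l2 (r = 0.948), and Loxl3 most like Hexa (r = 0.937) and Serpinh1 (r = 0.936), the collagen chaperone. Timp1 was most like Tppp3 (r = 0.948) and Dnm1 (r = 0.937), Timp2 most like Gfpt1 (r = 0.984) and Gxylt2 (r = 0.971), and Timp3 most like Pxdn (r = 0.883) and Zfp36l1 (r = 0.861). Timp4 was most like Arhgef15 (r = 0.976, rho = 0.958) and Sigirr (r = 0.968, rho = 0.944), and its r with Timp2 was −0.787 (rho = −0.86).

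Of 39 other metalloproteinases and their partners, 27 were tested. Between sham LV and sham RV, 1 of the 27 was called (Adam15, a membrane-bound metalloproteinase, 0.50 on the log2 scale, adjusted p = 0.037, beside 3.85% of all genes called), 0 were called for VO in either ventricle or between VO LV and VO RV, and 1 was called for the interaction of VO and ventricle (Adam19, another of that family, 0.66, adjusted p = 0.0422, beside 4.19% of all genes called). With each of the 12 libraries left out in turn, the call was kept 4 times for Adam15 and 3 times for Adam19. Without VO RV replicate 1 the interaction called 3 of the 27 (1 above and 2 below 0), beside 1003 of all 13910 genes. Adam19 was at 65.5 FPKM in sham LV and 87.6 FPKM in VO LV, and at 87.1 FPKM in sham RV and 73.5 FPKM in VO RV (means). The list medians lay between −0.09 and 0.09, beside −0.04 to 0.01 over all genes.

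Of 26 genes of collagen maturation and cross-linking, 24 were tested, and 0 were called in each of the 4 comparisons of groups. Loxl4, the remaining lysyl oxidase, had the smallest p of the list for VO in the LV, with a mean of 0.612 FPKM in sham LV and 1.98 FPKM in VO LV (1.13 ± 0.23 (SE), adjusted p = 0.0524), and it was at 1.06 FPKM in sham RV and 0.826 FPKM in VO RV. Next was Tgm2, a transglutaminase that cross-links proteins through glutamine (0.40, adjusted p = 0.0663). For the interaction of VO and ventricle, 3 of the 24 were called, beside 4.19% of all genes. The count was 10 (2 above and 8 below 0) without VO RV replicate 1, 1 without VO RV replicate 2, 0 without sham RV replicate 1 and 5 (2 above and 3 below 0) with the fibroblast covariate. Over all 13910 genes the counts in these fits were 1003, 909, 0 and 1113, in that order. Tgm2 (0.58, adjusted p = 0.0424) and Loxl4 (1.36 ± 0.32 (SE), adjusted p = 0.0449) rose in the LV relative to the RV, and P3h3, a collagen prolyl hydroxylase (−0.95, adjusted p = 0.0479), fell relative to it. With each of the 12 libraries left out in turn, the call was kept 3 times for Tgm2 and 2 times each for Loxl4 and P3h3, and without sham LV replicate 1, for example, 0 of all genes were called. Between VO LV and VO RV, 4 of the 24 were above 0, and the median was −0.26 (7 of the 24 and −0.14 without VO RV replicate 2, and 9 of the 24 and −0.05 with the fibroblast covariate). When VO RV replicate 1 was left out, 2 were called, both lower in the LV, beside 48 of all 13910 genes.

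The substrates that these enzymes act on were lower in VO LV than in VO RV in 24 of 27 tested genes. Of the 28 listed collagens, elastic fibre genes and matrix glycoproteins, 0 were called in any comparison with all 12 libraries. Between VO LV and VO RV their median was −0.53. With lower levels in the LV, 13 of the 27 had an unadjusted p under 0.05, and with higher levels 2 did. Of all genes, 11.4% did in either direction. The smallest p were those of Mfap2 (−0.73, adjusted p = 0.239) and Efemp2 (−0.75, adjusted p = 0.241), both elastic fibre genes. Leaving out VO RV replicate 2, 20 of the 27 were below 0, 9 had an unadjusted p under 0.05 with lower levels in the LV, and the median was −0.21. With the fibroblast covariate 14 of the 27 were below 0, and the median was −0.007. An unadjusted p under 0.05 was then reached by 2 with lower and 3 with higher levels in the LV. That covariate is the mean of 10 markers, 5 of them substrates of this list, so it adjusts the list in part for itself. When VO RV replicate 1 was left out, 2 of the 27 were called, both lower in the LV, beside 48 of all 13910 genes, and the median was −0.65. Between VO RV and sham RV 22 of the 27 were above 0, with a median of 0.19 (8 of the 27 and −0.10 without VO RV replicate 2, and 26 of the 27 and 0.43 without VO RV replicate 1), and between VO LV and sham LV 8 of the 27, with a median of −0.14. The fibroblast markers, 5 of which are also among these substrates, had a median of −0.52 between VO LV and VO RV, where 6 of 10 had an unadjusted p under 0.05 with lower levels in the LV and 0 were called, and a median of −0.25 without VO RV replicate 2. Other markers also differed between VO LV and VO RV, not all in step with the substrates. Epicardial markers had a median of −1.14, with 6 of 8 at an unadjusted p under 0.05 and lower levels in the LV. Without VO RV replicate 2 their median was −1.27, again with 6 of 8, while that of the substrates moved toward 0. In the other direction, 9 of 9 cardiomyocyte markers were above 0, with a median of 0.27 (5 of 9 and 0.01 without VO RV replicate 2). Macrophage markers were below 0 in 10 of 10, with a median of −0.33 and 1 at an unadjusted p under 0.05 (8 of 10, −0.16 and 1 without that library, and 10 of 10, −0.56 and 9 without VO RV replicate 1). The part of these cells in the difference was not tested. Between sham LV and sham RV, 22 of the 27 substrates were also below 0, with a median of −0.20 (18 and −0.09 without sham RV replicate 1). So were 9 of 10 fibroblast markers, with a median of −0.19, and 7 of 8 epicardial markers, with a median of −0.62. The substrates with the smallest p in that comparison were Fbln5 (0.58, adjusted p = 0.125) and Fbn2 (−0.63, adjusted p = 0.182).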

How the data were processed

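RNA of LV and RV free walls was sequenced in 12 libraries. Per the labels and the paper's methods, the authors selected mRNA with poly-T beads, made libraries with an NEBNext Ultra kit, aligned reads with HISAT2 2.0.5 and counted them per gene with featureCounts 1.5.0-p3. The submitters' processing notes also name StringTie 1.3.3b, GATK 3.7 and DESeq2 1.20.0. The genome build and whether counting used strand are not given in the sources used here, so reads of a gene and of an overlapping antisense gene may not be told apart. The deposited values are FPKM, computed by the authors from these counts. Multiplied by gene length, 100% of the values under 200 reads were whole multiples of 1 step per library (tolerance 0.02), which gave back the reads. All 12 columns of values could be mapped to a sample by name. Gene lengths and positions were taken from the same table.

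FPKM were divided by median-ratio size factors, 0.5 was added and log2 was taken, so fold changes of low genes are understated. The 13910 genes whose FPKM averaged 0.5 or more entered 1 limma model of all 12 libraries (limma 3.58.1 in R 4.3.3, with lmFit, contrasts.fit and trended eBayes). Benjamini-Hochberg adjustment ran over all of them. A gene was called where its fold change exceeded 1.3 and its adjusted p was under 0.05. Beside this, each of the 10 genes was put through an exact permutation test (two-sided) of its FPKM. The procedure was tested on simulated data. The study's count test was not run; voom on the recovered reads was an alternative.

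The 10 genes and all lists (other metalloproteinases, collagen maturation and crosslinking, substrates, and markers of fibroblasts, cardiomyocytes, endothelial, mural, macrophage, epicardial, atrial and red blood cells and of the Y chromosome) were chosen with earlier results of these data known. All 10 genes are named. Of each pathway list, at most the 3 called genes with the smallest adjusted p are named, or, where 0 were called, at most the 2 with the smallest p. The genes most alike are the 2 with the highest Pearson r on the log2 scale. Motifs were searched in RefSeq promoters of GRCr8. Alternatives covered scaling, pseudocount, filter, model, covariates, recovered reads (voom) and each library left out.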

Additional observations from a re-analysis of the deposited data

How the results depend on the processing

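Of 50 results (10 genes in 5 comparisons), 3 changed their call and 22 changed sign under at least 1 alternative, 18 of them when a single library was left out, and 0 reversed a difference with an unadjusted p under 0.05. For sham LV against sham RV, the number of the 10 genes called was 0 in place of 1, because Timp4 lost its call, when no minimum FPKM was set (adjusted p = 0.0835), in a separate fit of the 6 libraries (0.0606), with a covariate for the Y-linked genes (0.055), without sham RV replicate 1 and VO RV replicate 2 together (0.138) and with a covariate for fibroblast markers added after the data were seen (0.101). With single libraries left out it ranged from 0 to 1 in this comparison, in VO LV against VO RV and in the difference between the responses, the latter 2 reaching 1 (Timp1) without VO RV replicate 1. For VO against sham it was 0 in both ventricles under every alternative. Timp4 had an adjusted p of 0.0381 with voom on the recovered reads and 0.0184 with array weights, its lowest. The replicate numbers were not used as pairs. Libraries of 1 number correlated in their deviations from the group means at −0.218 to 0.123. Between sham LV and sham RV these correlations were 0.045, 0.038 and 0.123. The Y-linked sums of sham LV and sham RV were also alike by number, so a shared heart was not settled there. For VO, the Y-linked sum of replicate 3 was 0.296 FPKM in the LV and 56.1 FPKM in the RV. With the replicate number as a block, 0 of the 10 genes were called between sham LV and sham RV (Timp4, adjusted p = 0.0847), and the calls over all genes were 3 in place of 536. The calls over all genes in that comparison ranged from 0 (without sham RV replicate 1) to 1321 (array weights), and were 684 with voom. For VO LV against sham LV they ranged from 0 to 704 in place of 13 (339 with voom), for VO RV against sham RV from 0 to 2 in place of 0, for VO LV against VO RV from 1 to 48 in place of 1, and for the difference between the responses from 0 (without sham LV replicate 1) to 1264 (atrial covariate) in place of 583 (804 with voom). Apart from tests with fewer libraries or more genes, the cause of these changes was not tested. Timp4 and Loxl3 held the fewest reads, which limits their precision, and 3 libraries a group cannot give an exact p below 0.10.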
